A study of Xerophyta schlechteri with 51 samples.

Results

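The genes described here are 73 of the 20783 gene IDs that occur once in an expression table of Xerophyta schlechteri leaf blades. This species is a resurrection plant: its leaves can dry almost completely and recover. They were chosen by their values in non-senescent tissue (NST): a mean level at 75% relative water content (RWC, leaf water relative to the fully turgid leaf) of at least 4 times that at full turgor and at least 4 times that below 10% RWC. The study set NST beside tissue about to senesce (pre-senescent, PST) and senescent tissue (ST) as the leaves dried and recovered. Its 51 RNA sequencing libraries form 17 groups of 3: NST and ST at full turgor, NST, PST and ST at 75%, 55%, 35% and <10% RWC, and all 3 tissues 48 h after rehydration. PST was not sampled in the fully turgid state. The water content label carries the NST abbreviation, so stages are named here by the water content of NST. All groups were leaf blade of 1 species, and the labels do not tie libraries to plants. The p-values therefore reflect the spread between these libraries, which may be technical. In bulk tissue, fewer cells of a type and less RNA per cell cannot be told apart.

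Levels are FPKM (fragments scaled by transcript length and by the mapped fragments of the library). The summed FPKM of a library ran from 489069 to 1064467, and the number of reads behind it is unknown. An estimate of relative depth from the lowest values ran from 0.61 to 1.5 over the libraries, from 1.05 to 1.23 in NST at 75% RWC, from 1.14 to 1.22 in NST at full turgor and from 0.77 to 0.94 in NST at <10% RWC. Neither names nor functions accompany the IDs, so no role can be given to any of the 73 genes, no sequence is printed, and the tissue could not be checked against marker genes. Only 4 IDs are named, by a fixed rule: the 2 genes with the highest mean in NST at 75% RWC, and the 2 with the most negative change in ST from full turgor to 75% RWC.

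As background, the first loss of water is sensed by a leaf long before it is dry. Falling turgor and the hormone abscisic acid start signalling that closes stomata and switches on genes for regulators, transporters and protective proteins. In many plants part of this early response is short-lived, while transcripts of protectants such as late embryogenesis abundant proteins go on accumulating as drying proceeds. In resurrection plants the older leaves or leaf tips of some species senesce on drying while the rest survive.

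The rule asked for more than the 2 ratios. To each group mean 1 FPKM was added. The sum at 75% RWC in NST had to be at least 10 and above that of rehydrated NST and rehydrated PST, the dry level could be at most 2 times that at full turgor, and dry ST had to be under 8 times dry NST. Applied in turn, 8495 IDs reached the level at 75% RWC, 797 of these stood at 4 times full turgor, 120 of these also at 4 times the dry leaf, 85 met the limit on the dry level, 84 the limit on rehydrated tissue, and 73 the limit on dry ST. The edges fall within a continuum. The ratio of 75% RWC to full turgor was 4.00 for the gene just inside (15.3 against 3.08 FPKM) and 3.99 for the one just outside (24.8 against 5.48 FPKM). The ratio to the dry leaf was 4.03 just inside (59.0 against 13.9 FPKM) and 3.92 just outside (143.51 against 35.9 FPKM). The lowest level kept was 9.87 FPKM, and the highest level that failed on level alone was 7.56 FPKM. All values of NST at full turgor, 75% and <10% RWC below describe this choice and are not tested.

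The 73 genes were mostly of low to middle level when the leaf was hydrated. In NST at full turgor 12 had a mean under 1 FPKM and 4 a mean of 100 FPKM or more, with a median of 5.51 FPKM. At 75% RWC the median of the gene means was 49.7 FPKM and the range 9.87 to 1515 FPKM. There, 10 genes were under 20 FPKM, 43 between 20 and 100, 18 between 100 and 1000, and 2 above 1000 FPKM. The median log2 ratio of 75% RWC to full turgor was 2.85, and 12 genes stood at 16 times full turgor or more. Together the 73 genes held 0.241% ± 0.073 of the summed FPKM of NST at full turgor, 1.40% ± 0.77 at 75% RWC, 0.866% ± 0.45 at 55% RWC, 0.161% ± 0.093 at 35% RWC and 0.103% ± 0.012 at <10% RWC (SD, n = 3 each). In rehydrated NST the share was 0.0822% ± 0.041.

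The level of the 73 genes differed between the libraries of 1 stage, and the place of the libraries numbered 2 was shared by the tissues. In NST at 75% RWC the median over the 73 genes was 60.7, 55.5 and 19.6 FPKM in the libraries numbered 0, 1 and 2 in the column names. In PST at the same stage it was 75.1, 57.7 and 19.5 FPKM, and in ST 23.2, 42.5 and 16.9 FPKM. Library number 2 was thus lowest in each tissue at 75% RWC, while the highest was number 0 in NST and PST and number 1 in ST. Within NST it was the lowest of the 3 for 60 of the 73 genes, within PST for 58 and within ST for 48. At 55% RWC number 2 was the highest instead: the medians of numbers 0, 1 and 2 were 30.8, 16.4 and 45.1 FPKM in NST, 21.9, 13.9 and 49.7 FPKM in PST, and 7.67, 9.87 and 34.7 FPKM in ST. Number 2 was the highest of the 3 for 52 genes in NST, 61 in PST and 66 in ST.

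This sharing extended beyond the 73 genes. Over all genes tested, deviations from the group means correlated between NST and PST libraries of the same number at 75% RWC with coefficients of 0.81 to 0.87, and between NST and ST libraries with 0.51 to 0.71. Genes are not independent replicates, and these values are descriptions. The labels do not say whether a number marks a plant or a batch, and these cannot be told apart. Libraries of PST and ST at 75% RWC are therefore not fully independent of the NST libraries that chose the genes.

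**Figure D1:**
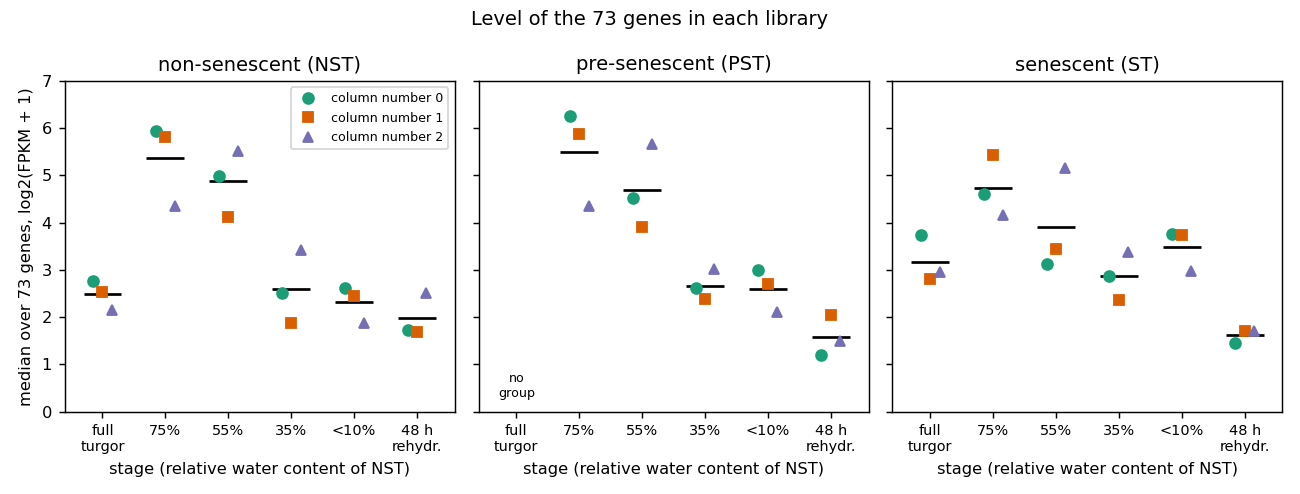
Median of log2(FPKM + 1) over the 73 genes (vertical axis) in each of the 51 libraries, by stage (horizontal axis) and tissue (panels). Symbols give the number in the column name and bars the mean of 3 libraries. All libraries of NST and PST at 75% and 55% RWC lie above those of the drier stages, while in ST numbers 0 and 1 at 55% RWC lie at 3.12 and 3.44, among those of other stages; number 2 is the lowest at 75% RWC and the highest at 55% RWC in each panel, and the lowest means are those of rehydrated tissue.

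The gene with the highest level was Xvis03_211534. In NST it stood at 129, 114 and 199 FPKM at full turgor, at 3549, 706 and 290 FPKM at 75% RWC and at 419, 481 and 300 FPKM at 55% RWC. At 35% RWC it was at 62.1, 10.5 and 9.79 FPKM and at <10% RWC at 48.0, 61.8 and 12.4 FPKM. The 3 libraries at 75% RWC lay above all at full turgor, but spread more than 10-fold, with number 0 highest. The rule set no limit at 55% or 35% RWC, but it required a fall from 75% RWC to the dry leaf, which spans both. The drop between 55% and 35% RWC measured 4.31 on the log2 scale (standard error 0.92, limma adjusted p = 0.00628). This call was lost with only the 6 libraries of these stages in the fit. In PST it stood at 3867, 1206 and 319 FPKM at 75% RWC and at 90.2, 111 and 40.5 FPKM at <10% RWC, and the log2 difference was 3.93 (standard error 0.92, limma adjusted p = 0.00226). In ST it was already at 897, 164 and 253 FPKM at full turgor, against 1183, 716 and 173 FPKM at 75% RWC. These ST groups overlapped, and the log2 difference of 0.66 did not pass the test (standard error 0.92, limma adjusted p = 0.617). Rewatered ST held 13.4, 4.66 and 7.78 FPKM, lower than ST at full turgor by a log2 change of -5.23 (standard error 0.92, limma adjusted p = 1.23e-05).

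Xvis03_208246 had the second highest level and a flatter course. In NST it stood at 119, 232 and 160 FPKM at full turgor, at 2399, 1328 and 523 FPKM at 75% RWC, and still at 1057, 510 and 1183 FPKM at 55% RWC. It was at 281, 201 and 133 FPKM at 35% RWC and at 233, 263 and 152 FPKM at <10% RWC. The stages at 75% and 55% RWC overlapped, and each lay above all libraries of the 2 drier stages. The level at 55% RWC was higher than at 35% RWC by 2.13 on the log2 scale (standard error 0.61, limma adjusted p = 0.0276). This call was lost without NST number 0 or 2 at 55% RWC or number 1 or 2 at 35% RWC, where the difference lay between 1.85 and 2.15. In ST it stood at 341, 254 and 198 FPKM at full turgor and at 563, 532 and 278 FPKM at 75% RWC, a difference of 0.76 that did not pass the test (standard error 0.61, limma adjusted p = 0.357). Dry ST held 514, 689 and 393 FPKM, above all 3 libraries of dry NST. Of the 2 genes, Xvis03_211534 thus spread more between the NST libraries at 75% RWC, and it stood lower at 35% RWC.

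**Figure D2:**
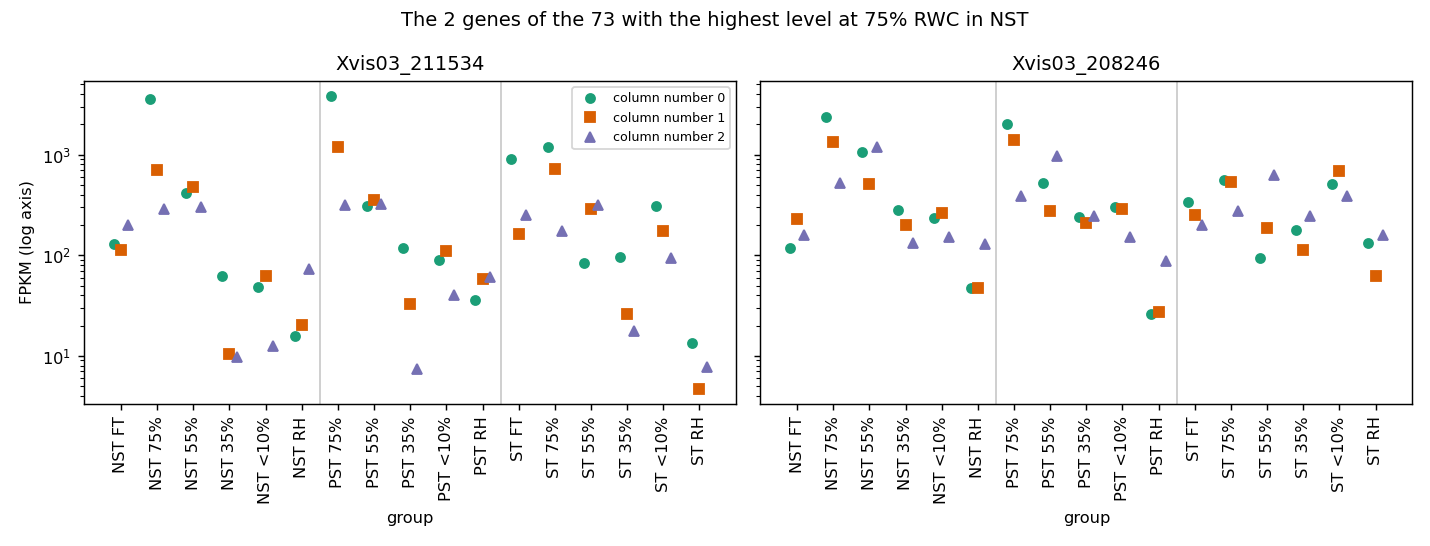
FPKM (log axis) of the 2 genes with the highest mean at 75% RWC in NST, by library; symbols give the column number and vertical lines part the tissues. In NST, Xvis03_211534 runs from 290 to 3549 FPKM and Xvis03_208246 from 523 to 2399 FPKM at 75% RWC.

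Most of the 73 genes were still high at 55% RWC and low at 35% RWC. The rule placed no limit on 55% or 35% RWC. In NST the mean was highest at 75% RWC for 55 genes and at 55% RWC for 18, and it was highest at no other drying stage. The median log2 ratio of 55% to 75% RWC was -0.39, with a range of -4.13 to 0.94. For 1 gene all 3 libraries at 55% RWC lay below all 3 at 75% RWC, against 3.93% of all genes tested. At 35% RWC the median log2 ratio to 75% RWC was -2.94, and 56 genes had all 3 libraries below those at 75% RWC, as did 17.4% of all genes tested. The NST libraries at 75% RWC chose the genes for a high level, so these ratios lean downward by construction and are not tested. By the means 55 genes peaked at 75% RWC, but the single libraries at 75% and 55% RWC overlapped for 72 of the 73 genes.

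Among the 73 genes, 16 had dropped below 50% of their 75% RWC level at 55% RWC in NST and 18 stood as high or higher. These differences recurred in the other tissues. Of the 16 early-dropping genes, 15 were also below 50% in PST and 10 in ST. Of the 18 sustained genes, 10 stood as high or higher at 55% RWC in PST and 10 in ST, and 1 was below 50% in PST and 0 in ST. Libraries of 1 number share deviations across tissues at both stages, so this agreement was not tested.

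**Figure D3:**
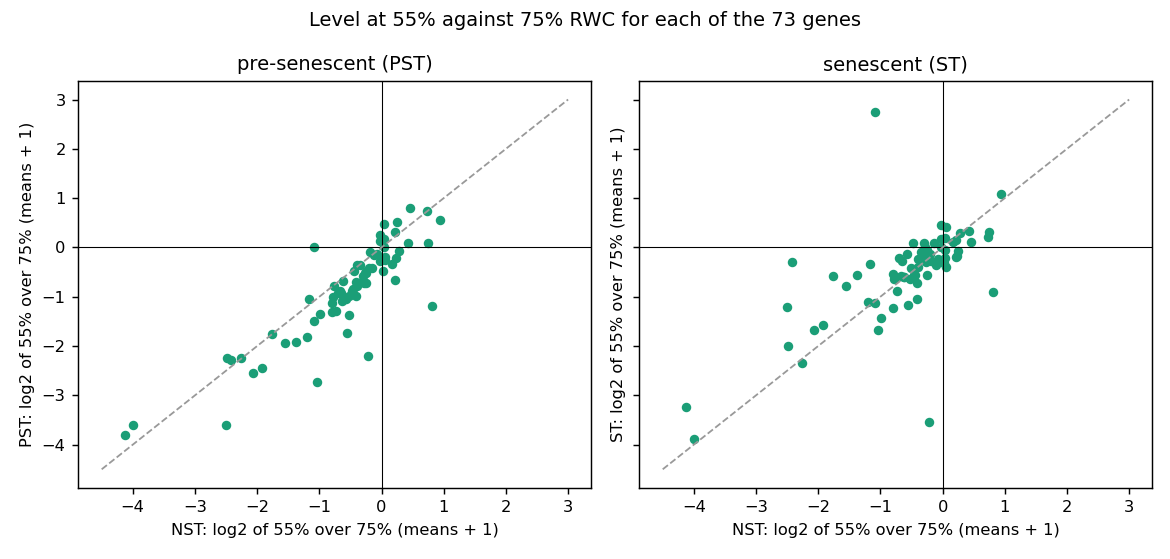
Log2 ratio of the mean at 55% RWC to that at 75% RWC (1 FPKM added to each) for the 73 genes, in NST (horizontal axis) against PST and ST (vertical axes). The dashed line marks equal ratios. Points run along it from -4.13 to 0.94 in NST, with outlying genes in PST and in ST.

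The later drop in NST was tested between 55% and 35% RWC, stages on which the rule placed no limit. The rule did require NST at the first drying stage to stand at least 4 times above the dry leaf. Both tested stages lie within that fall, and the median log2 ratio of 55% RWC to the first drying stage was -0.39. A drop between 55% and 35% RWC is therefore partly built into the choice, and all genes tested are not an independent baseline. Deviations shared between these groups and the NST groups of the rule were not checked. Levels were compared as log2(FPKM + 1) over all 18717 genes with at least 1 FPKM in at least 3 libraries, and all 73 genes passed this filter. Of the 73, 42 were higher at 55% than at 35% RWC and 0 were lower, also at an unadjusted p under 0.05 (limma, adjusted p under 0.05 for the calls). The background was 3.88% of all genes higher and 4.35% lower, against 57.5% of the 73 higher. At the unadjusted level 60 were higher, beside 4546 of the 18717 genes tested in either direction. The median difference was 2.31, against 0.04 for all genes tested, and 71 genes differed in this direction. The count rests on single libraries. It was 5 without NST at 55% RWC number 2 and 10 without NST at 35% RWC number 1, and it was 1 with only these 6 libraries in the fit, where 0.00675% of all genes were called higher. Leaving out any 1 of the 6 libraries kept the median difference between 1.92 and 2.63.

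In ST part of the set was higher at the first drying stage. From full turgor to 75% RWC 24 of the 73 genes rose, 0 fell and 49 did not pass the test (limma, adjusted p under 0.05), a share of 32.9% higher against a background of 15% of all genes higher and 19.9% lower. At an unadjusted p under 0.05, 34 were higher and 1 lower. In either direction, 8201 of the 18717 genes tested passed that level. Log2 changes of the 24 ran from 1.46 to 3.34. The median change of the 73 genes was 1.28, against -0.08 for all genes, 67 genes had a positive change, and for 30 genes all 3 libraries at 75% RWC lay above all 3 at full turgor, as they did for 22.6% of all genes. Without ST at 75% RWC number 1, 15 of the 73 genes were called higher, while 15.2% of all genes tested were. Same-number libraries of ST and NST correlated at 75% RWC (0.51 to 0.71) and at full turgor (0.68 to 0.75). The rule used NST at both stages, so neither end of this comparison is fully independent of the choice. At full turgor ST libraries held a median of 12.4, 5.99 and 6.77 FPKM over the 73 genes, against 5.81, 4.80 and 3.44 FPKM in NST. The mean of ST at full turgor was above that of NST for 65 genes. NST at full turgor was chosen to be low, so this gap was not tested.

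The 2 genes with the most negative change in ST gave these values. Xvis03_214297 was listed at 0 in 43 of the 51 libraries and between 16.2 and 26.1 FPKM in the other 8. It entered the set through 2 NST libraries at 75% RWC (18.0 and 20.6 FPKM, against 0 in the third), and it stood at 17.4, 16.2 and 0 FPKM in fully turgid ST and was listed at 0 in all 3 ST libraries at 75% RWC. Because values listed at 0 may be estimates that failed, no fold is printed for this change. The change missed the threshold (limma, adjusted p = 0.0629) and passed it without ST at full turgor number 2. Xvis03_223691 stood at 23.3, 5.72 and 5.03 FPKM in fully turgid ST and at 14.7, 15.8 and 1.04 FPKM at 75% RWC, groups that overlapped (log2 change -0.29, standard error 0.74, limma adjusted p = 0.793). In NST it stood at 1.54, 0.28 and 0.25 FPKM at full turgor and 24.9, 5.09 and 3.82 FPKM at 75% RWC. The other 4 genes with a negative change in ST lay between -0.18 and -0.015.

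PST could be tested only from 75% RWC on. Between 75% RWC and the dry leaf 59 of the 73 genes were higher at 75% RWC and 0 lower (limma, adjusted p under 0.05), which is 80.8% against a background of 13.1% higher and 12.6% lower. At an unadjusted p under 0.05, 64 were higher and 0 lower, beside 7073 of the 18717 genes tested in either direction. The median difference was 2.71, against 0.06 for all genes, and for 57 genes the 2 groups did not overlap in this direction, as for 19.6% of all genes. Leaving out 1 library gave between 40 and 63 genes. With all libraries numbered 0 or 1 left out, settings chosen after seeing the data, the counts were 2 and 0. In these settings 0.0937% and 0.0109% of all genes were called higher. The same-number correlation of 0.81 to 0.87 with the NST libraries at 75% RWC applies to this result. PST and NST libraries of the same number at <10% RWC also correlated (0.63 to 0.77), and the rule kept dry NST low. Neither end of this comparison is therefore fully independent of the choice. All 24 genes that rose in ST were among these 59 (100% of the 24 and 40.7% of the 59), as were 40 of the 42 that were higher at 55% than at 35% RWC in NST (95.2% of the 42 and 67.8% of the 59). A total of 16 genes passed all 3 tests and 12 passed none. With 59 of the 73 called in PST, a list drawn from the 73 without regard to PST would mostly fall among them. These overlaps were not counted over all genes tested. Same-number libraries of PST and ST at 75% RWC also correlated (0.61 to 0.79), so the calls are not independent.

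**Figure D4:**
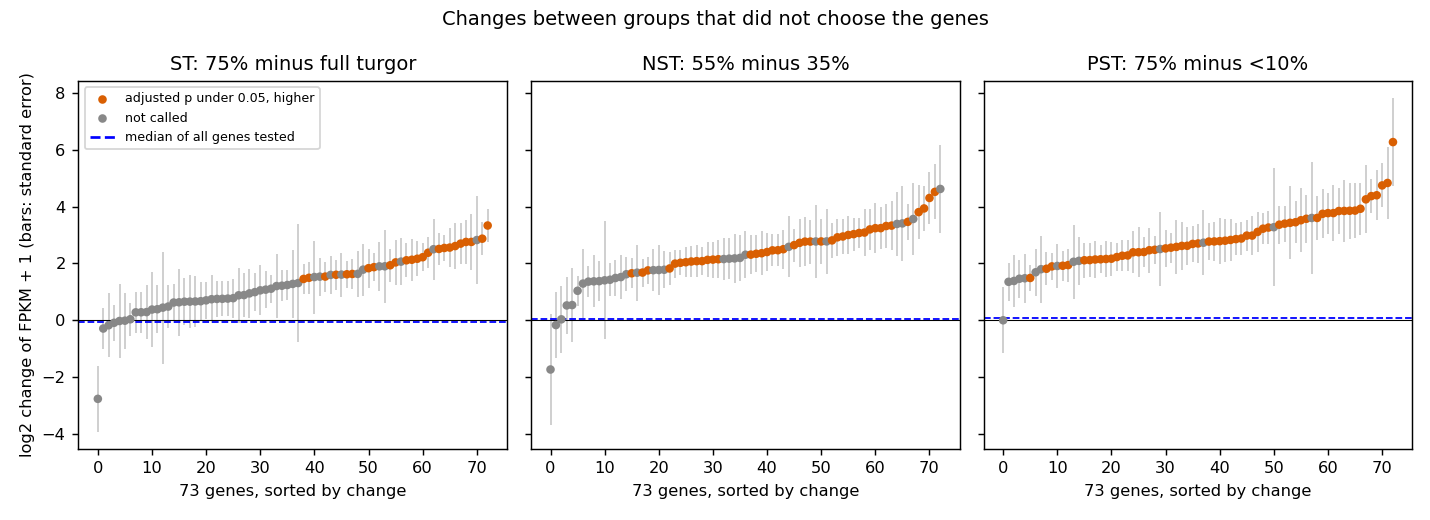
Log2 change of FPKM + 1 for each of the 73 genes, sorted within each panel, with standard errors, in 3 comparisons between groups outside the rule. In the ST and PST panels, same-number libraries shared deviations with NST groups that the rule used. The rule also required a fall in NST from the first drying stage to the dry leaf, which spans the stages of the NST panel. Orange points passed the threshold (24, 42 and 59 genes from left to right), and the dashed line is the median of all genes tested (-0.08, 0.04 and 0.06).

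The step from 75% to 55% RWC in PST and ST was not resolved for single genes. From 75% to 55% RWC limma called 0 of the 73 genes in ST and 0 in PST. At the unadjusted 0.05 level, 2 genes in ST and 6 in PST were higher at 75% RWC. In either direction, 225 of the 18717 genes tested passed that level in ST and 1731 in PST. For the calls, the background was 0.00534% and 0.0267% of all genes called higher at 75% RWC. Median differences were 0.60 in ST and 0.76 in PST, and leaving out 1 library moved them between 0.21 and 1.39 and between 0.27 and 1.36. The rule chose NST at 75% RWC to be high, and same-number libraries of PST (0.81 to 0.87) and ST (0.51 to 0.71) correlated with it. The 75% RWC end of these comparisons, with 55% and with 35% RWC, is therefore not fully independent of the choice. The libraries numbered 2 were also left out in all groups, a setting chosen after seeing the data. Then 3 of the 73 genes in ST and 30 in PST were higher at 75% than at 55% RWC. The backgrounds were 0.125% and 7.15% of all genes tested. From 75% to 35% RWC in ST 1 gene was called higher, with a background of 0.0107%, and 51 had an unadjusted p under 0.05. That level was passed by 2404 of the 18717 genes tested, in either direction. The single call was lost without ST number 0 or 1 at 75% RWC or number 1 or 2 at 35% RWC. The median difference was 1.68, and for 41 genes the groups did not overlap, as for 9.5% of all genes. Without the libraries numbered 2 in all groups, again chosen after seeing the data, 42 genes were called higher, beside 1.99% of all genes. The change from 55% to 75% RWC did not differ between PST and ST past the threshold for any of the 73 genes (limma, 0 called and 0 at an unadjusted p under 0.05; a comparison added after seeing the data). Of all 18717 genes tested, 0 were called and 54 had an unadjusted p under 0.05.

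At 75% RWC most of the set stood lower in ST than in PST by the group means, but limma called none of these genes. The median difference was -0.91, against -0.02 for all genes, and 72 of the 73 genes had a lower mean log2 level in ST. The exception, Xvis03_214297, was listed at 0 in both. limma called 0 genes, against a background of 0% called lower and 0.0695% called higher. At the unadjusted 0.05 level 2 genes were lower in ST and 0 higher, beside 1875 of the 18717 genes tested in either direction. With stage and column number as a block, 6 of the 73 genes were lower in ST and 0 higher, against a background of 3.96% of all genes tested. The median difference lay between -1.45 and -0.52 when 1 library was left out. Same-number libraries at 75% RWC correlated more between NST and PST (0.81 to 0.87) than between NST and ST (0.51 to 0.71). NST at 75% RWC was chosen to be high, so the choice may favour PST over ST here. Neither group is fully independent of the choice, and the median of all genes is not an independent baseline.

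In NST, where the rule capped the dry level, the dry leaf showed levels near or below those at full turgor. Medians after rehydration were mostly below full turgor, while dry ST stood higher. In dry ST the mean was above that of dry NST for 63 genes, with a median log2 ratio of 1.06. For 30 of them the libraries did not overlap, as for 17.4% of all genes tested. The medians over the 73 genes were 12.5, 12.4 and 6.89 FPKM in dry ST, 5.16, 4.42 and 2.68 FPKM in dry NST and 7.01, 5.48 and 3.33 FPKM in dry PST. The rule limited dry NST and capped dry ST, so this difference is given without a test. Within ST the mean at <10% RWC was above that at 35% RWC for 50 genes, with a median log2 ratio of 0.51. With 1 FPKM added, it was at least 2 times higher for 22 genes and at least 2 times lower for 8. Over the drying stages of ST the mean was highest at <10% RWC for 9 genes and at 75% RWC for 42. This later course was not tested. After rehydration the medians were 2.32, 2.21 and 4.72 FPKM in NST, 1.30, 3.10 and 1.82 FPKM in PST and 1.72, 2.28 and 2.28 FPKM in ST. All 9 lay below the 3 ST libraries at full turgor, and 8 of the 9 below the 3 of NST at full turgor. In NST 25 genes had all 3 rehydrated libraries below those at full turgor and 8 above, beside 20.7% and 21% of all genes tested; the rule capped rehydrated NST and kept fully turgid NST low. In ST, where the rule used neither of the compared groups, 24 of the 73 genes were lower after rehydration than at full turgor and 0 were higher (limma, adjusted p under 0.05). This share of 32.9% lower was near the background of 29.8%. At an unadjusted p under 0.05, 32 were lower and 0 higher, beside 10656 of the 18717 genes tested in either direction. The share called higher was 0% against a background of 22.1%, and the median difference was -1.24, against -0.20 for all genes.

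**Figure D5:**
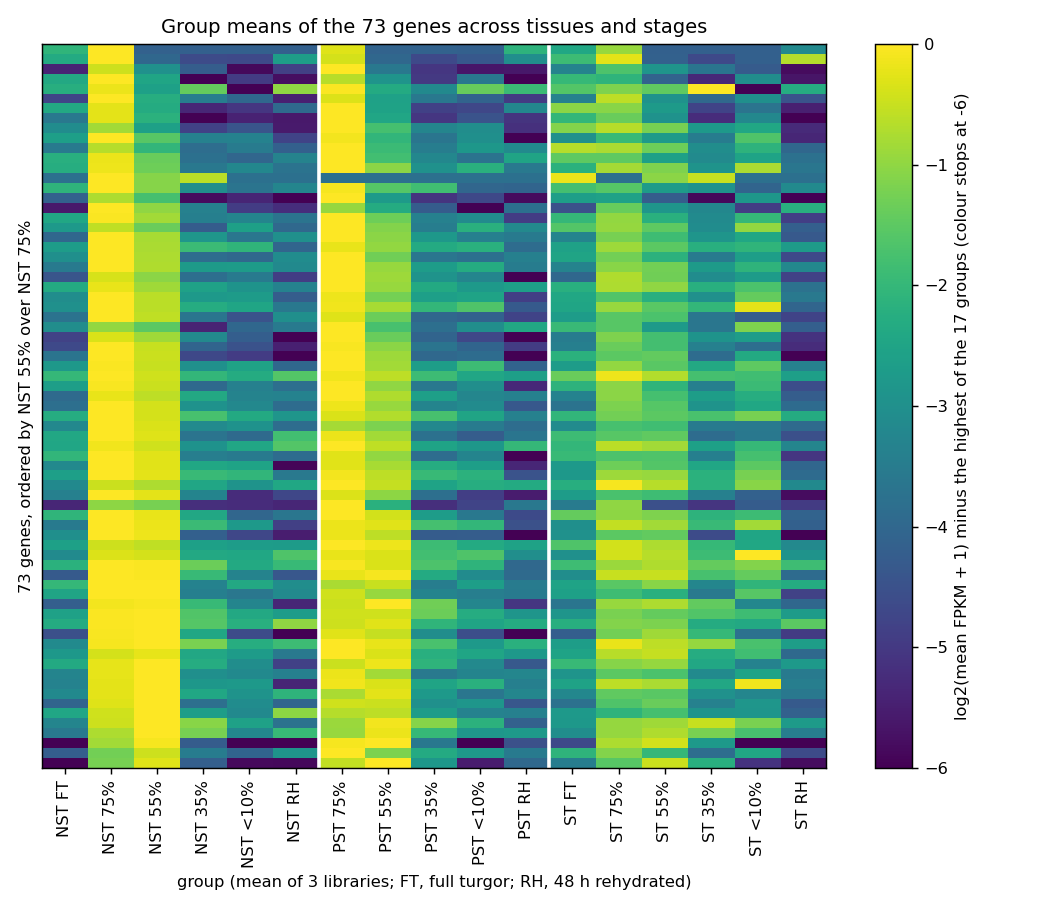
Group means of the 73 genes (rows, ordered by the ratio of 55% to 75% RWC in NST) in 17 groups (columns), as log2(mean FPKM + 1) minus the highest group of each gene. The bright columns are NST and PST at 75% and 55% RWC; ST at these stages is dimmer, and rehydrated tissue is dark.

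Most genes with a high level at first water loss did not share this course. In NST 677 other IDs met the same limits on level and on the ratio of 75% RWC to full turgor, but their level at 75% RWC was under 4 times that of the dry leaf. In ST 616 of these 677 (91%) rose from full turgor to 75% RWC, with a median change of 2.96, beside 32.9% and 1.28 for the 73 genes. Between 75% and <10% RWC in PST 5.47% of the 677 were higher at 75% RWC and 15.5% lower, beside 80.8% and 0% of the 73. Between ST and PST at 75% RWC the median difference was 0.11 for the 677 and -0.91 for the 73. After rehydration 76.4% of the 677 stood higher in ST than at full turgor, with a median of 2.64, and 0% of the 73. Both sets were chosen on NST libraries, and the dry level divided them, so these values are set side by side without a test.

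Membership depended on single libraries and on the settings. For 5 of the 73 genes 1 NST library held over 80% of the summed level of the 3 at 75% RWC, and for 54 all 3 libraries at 75% RWC lay above all 3 at full turgor, as for 17.6% of all genes tested. The rule found 51, 70 and 107 genes without NST at 75% RWC number 0, 1 and 2, of which 46, 58 and 72 were among the 73. With group medians in place of means it found 71 genes, of which 48 were shared. With quantile normalization it found 73 genes, of which 53 were shared. Leaving out all libraries numbered 0, 1 or 2, settings chosen after seeing the data, gave 56, 82 and 103 genes. Of these, 35, 53 and 68 were shared.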

How the data were processed

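The authors deposited 1 table of FPKM values, rounded to 2 decimals, with 1 column for each of 51 libraries and no read counts. Bowtie2, TopHat and Cuffdiff were used, per the submitters' processing notes, with versions, genome build, filters and scaling not given in the sources used here. Total RNA of leaf blades was sequenced after an Illumina RNA-seq library preparation, per the labels' protocols. Cuffdiff can divide ambiguous reads between similar genes, so near-identical genes are uncertain.

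The table has 21815 entries with 21282 IDs; 499 IDs occur more than once (1032 entries) and could not be members, but were kept in the fits. Columns were matched to groups by tissue and stage in their names. Values were tested as log2(FPKM + 1), so changes of low genes are understated. Genes needed at least 1 FPKM in at least 3 libraries. The 51 libraries entered a single model with 17 group means, fitted with limma 3.58.1 (R 4.3.3; variance trend; 34 residual degrees of freedom). Two-sided p-values were adjusted by Benjamini-Hochberg over all 18717 genes tested, with a threshold of 0.05. The IDs named are the 2 members with the highest mean in NST at 75% RWC and the 2 with the most negative change in ST from full turgor to 75% RWC. The procedure was tested on simulated data with independent noise of equal size over genes. Those data lacked the shared deviations of same-number libraries, so the test does not cover them. Summaries used Python 3.11.15.

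Members, lists, comparisons and alternatives were chosen with earlier results of these data known. Without gene names the planned pathway and marker lists were not used. Column numbers appear in no label. Same-number libraries of 1 stage deviated together in each pair of tissues checked (lowest correlation 0.39). Numbers were therefore treated as pairing tissues within a stage, but only in the block fit, which was an alternative. The main fit took no account of this pairing. Across stages the correlations ran from -0.55 to 0.56, with at least 1 number under 0.1 in each pair of groups, so numbers were not treated as pairing stages. The block fit used stage and number with a consensus correlation of 0.541. Relative depth was estimated from 2874 low genes, and 64.6% of library pairs met within 0.2 on the log2 scale, so it is rough.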

Additional observations from a re-analysis of the deposited data

How the results depend on the processing

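Alternatives were a pseudocount of 0.1, other filters, quantile normalization, library weights, the 2 compared groups alone, the block, and leaving out single libraries or, chosen after seeing the data, all libraries of 1 column number. Leaving out 1 library gave 15 to 27 genes higher and 0 to 1 lower for ST at 75% RWC against full turgor, 5 to 45 higher for NST at 55% against 35% RWC, 0 to 1 for ST at 75% against 35% RWC, 0 to 2 for PST at 75% against 55% RWC, and 51 to 107 members. Without number 1 the ST count at 75% RWC against full turgor was 8 of 72 tested, with 10.0% of all genes called higher, and without number 2 it was 32 higher and 1 lower, with 13.8% and 16.9% of all genes. Without number 0 and number 1 the NST count was 16 and 2 (2.14% and 0.0438% of all genes), the count of PST at 75% against <10% RWC was 2 and 0 (0.0937% and 0.0109%), the count of ST at 75% against 35% RWC was 0 and 0, and rehydrated ST had 13 and 15 genes below full turgor (25.6% and 20.7%). Without number 2, ST at 75% RWC had 3 genes above 55% RWC (0.125% of all genes; median difference 1.61) and 42 above 35% RWC (1.99%; 2.35), PST had 30 genes above 55% RWC (7.15%; 1.81), and 3 genes were lower in ST than in PST at 75% RWC (1.43%). Library weights gave 21 genes for ST at 75% against 35% RWC (0.994% of all genes) and 4 for PST at 75% against 55% RWC (2.11%). With only the compared groups fitted, ST at 75% against 35% RWC had 0 and NST at 55% against 35% RWC had 1. The replicate block gave 6 genes lower in ST than in PST at 75% RWC and changed no other count by over 1.5 times. The rule found 118 genes with a factor of 3 and 33 with a factor of 6. The cause of these changes was not tested, beyond the fewer libraries in each fit.

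Among the named genes, directions that turned had all missed the threshold. Xvis03_211534 changed by -0.074 in ST from full turgor to 75% RWC without number 1. Xvis03_223691 changed there by -0.81 to 0.71 when 1 library was left out, and by 0.35 without number 2. For Xvis03_214297, with 1 library above 0 in NST at 55% RWC and 1 at 35% RWC, the fitted difference ran from -1.54 to 1.38 when 1 library was left out and was 2.07 without number 0, depending on which listed 0 or lone value was dropped; none of these is a fold. Quantile normalization moved the median of all genes by over 0.1 for ST at 75% RWC against full turgor (from -0.08 to 0.03) and for rehydrated ST against full turgor (from -0.20 to 0.02), where the 73 genes had medians of 1.51 and -0.94. Absolute depth is unknown, which limits what can be said of genes near 0.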
